A study of Mus musculus with 5 samples.

Results

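Transcripts of enzymes that make NADPH were measured in adipocytes derived from mouse C3H10T1/2 cells, an established mesenchymal line that can be differentiated into fat cells. Of 9 listed genes of the pentose phosphate pathway and of other NADPH-making steps, 8 had probe sets named for that gene alone on the Affymetrix array: Pgls, Pgd, Taldo1, Tkt, Rpia, Idh1, Idh2 and Nnt. They had 17 probe sets, out of 34945 that name a single gene. The ninth, G6pdx, had no such probe set in the annotation used here and was not analysed here. The genes were listed by function, with earlier results of these data known.

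The groups were cells given butein, sulfuretin or the solvent DMSO, and, as a second pair, cells given resveratrol or a second solvent sample named DMSO1, which the labels give as the control of resveratrol. All groups share the cell line, the differentiated state and 6 h of treatment, and the labels state no dose. Each group has 1 array, so no difference below has an error from replicates or a test, and a difference between cultures and an effect of a compound cannot be told apart. Butein is a chalcone, sulfuretin the related aurone in which the bridge between the rings is closed, and resveratrol a stilbene.

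NADPH is the reducing agent of the cell. The oxidative branch of the pentose phosphate pathway makes it from glucose 6-phosphate in the cytosol, through G6pdx, Pgls and Pgd, and the non-oxidative branch, through Rpia, Tkt and Taldo1, exchanges the resulting sugars with glycolysis. Isocitrate dehydrogenases make it in the cytosol (Idh1) and in mitochondria (Idh2), and Nnt, in the inner mitochondrial membrane, makes it from NADH with the proton gradient. Fat cells spend NADPH on fatty acid synthesis, and all cells spend it on keeping glutathione and thioredoxin reduced.

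Values are deposited probe set intensities on a linear scale, compared as log2 differences. DMSO, butein and sulfuretin share one distribution of values and DMSO1 and resveratrol another, with median intensities of 6.85 in the first set and 11.1 to 11.5 in the second, so each compound was compared within its own set. A probe set was counted when its highest intensity over the 5 arrays reached 8.39, the median level of all probe sets. That left 15 of the 17 member probe sets and 22340 of the single-gene probe sets. Under it were 1 dim probe set of Idh2 (4.71 in butein, sulfuretin and DMSO, 7.03 in resveratrol and DMSO1) and 1 of Nnt (3.57 to 5.65). The 15 counted member probe sets were above the floor on every array. Other counted probe sets could be under it throughout the first set, whose values run lower. Among the genes of the lists below, Shpk (6.74 to 6.85) and Me3 (6.02) were so with butein, sulfuretin and DMSO. A difference of at least 2-fold, a log2 difference of 1, was called. Probe sets of one gene share their target and are not replicates. The 6 adipocyte markers measured all reached the floor and had a summed intensity of 17506 with butein, 19718 with sulfuretin and 19871 in DMSO, and of 18216 with resveratrol and 19379 in DMSO1. The 4 macrophage and blood markers measured summed to between 31 and 39 on each array. Of these Ptprc and Adgre1 were under the floor on every array, while Csf1r (15.2 to 21.1) and Cd68 (up to 9.51) reached it. Of 4 skeletal muscle markers Myod1, Myog and Myh1 were under it and Acta1 read 45.3 with butein, 52.6 with sulfuretin and 71.1 in DMSO, and 163 with resveratrol and 179 in DMSO1. Of 3 osteoblast and chondrocyte markers Acan was under the floor, and Sp7 (13.4 to 20.2) and Sox9 (68.7 to 102) reached it. The 5 preadipocyte and fibroblast markers measured, 4 of them at the floor or above, summed to 4579 with butein, 5292 with sulfuretin and 5357 in DMSO, and to 4416 with resveratrol and 4632 in DMSO1. Within the first set this sum and that of the adipocyte markers were lowest with butein. The brightest markers, Fabp4, Adipoq and Col3a1, make up most of these sums, and single markers did not all follow. Pparg was lowest with sulfuretin (355, against 416 with butein and 462 in DMSO). Thy1 was highest with butein (116, against 101 with sulfuretin and 108 in DMSO). What part cell make-up had in the differences below was not tested. Fewer cells of a type and less RNA per cell cannot be told apart in these samples.

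Pgd was the member that stood higher with both butein and sulfuretin, by about the same amount on every probe set. Pgd (NCBI gene 110208) encodes 6-phosphogluconate dehydrogenase, which yields the second NADPH of the oxidative branch. RefSeq places the gene on chromosome 4 of assembly GRCm38.p6, on the minus strand, with 2 start sites in the promoter table. The 300 bases around each start, 250 before it and 50 after, are shown because Pgd carries the main difference of the family. Capitals mark the match to the antioxidant response element core TGACNNNGC, searched on both strands.

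Pgd start 1, chr4:149166656-149166955: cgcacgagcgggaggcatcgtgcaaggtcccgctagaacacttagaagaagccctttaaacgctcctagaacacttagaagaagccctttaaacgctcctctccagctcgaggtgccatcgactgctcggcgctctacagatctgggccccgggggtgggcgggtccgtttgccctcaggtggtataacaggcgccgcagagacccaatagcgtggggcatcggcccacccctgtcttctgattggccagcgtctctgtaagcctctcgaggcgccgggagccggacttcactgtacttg

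Pgd start 2, chr4:149166033-149166332: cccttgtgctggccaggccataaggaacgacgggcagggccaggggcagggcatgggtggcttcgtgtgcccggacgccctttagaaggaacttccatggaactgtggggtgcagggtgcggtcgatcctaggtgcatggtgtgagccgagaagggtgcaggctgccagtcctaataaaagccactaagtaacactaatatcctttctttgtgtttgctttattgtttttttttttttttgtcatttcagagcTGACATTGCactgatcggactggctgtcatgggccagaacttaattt

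The window of start 2 holds TGACATTGC at base 4 after the start, and that of start 1 holds no match. On the minus strand start 2 lies downstream of start 1, so the match lies inside the gene as read from start 1. The window before the upstream start thus holds no core, and whether the match acts on Pgd was not tested. The core occurs in 12.4% of all 32851 promoter windows of this length in the table. Promoter windows were given for 8 of the 9 listed genes, 10 windows in all. The G6pdx window holds GCTCAGTCA, the same core on the other strand, 57 bases before the start, and the windows of Pgls, Taldo1, Tkt, Rpia, Idh1 and Idh2 hold none. Neither the sterol response element TCACNCCAC (1.24% of all windows) nor the E-box CACGTG (7.15%) occurs in any window of the listed genes. No match says only that these letters are not in these windows.

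On its brightest probe set, 1437380_x_at, Pgd read 2602 with butein and 2388 with sulfuretin, against 1312 in DMSO. On the second, 1436771_x_at, it read 2506 with butein and 2326 with sulfuretin, against 1304 in DMSO. On the third, 1438627_x_at, it read 1107 with butein and 1033 with sulfuretin, against 597 in DMSO. Both treated arrays were thus well above DMSO on all 3, with butein slightly above sulfuretin. The fourth, 1423706_a_at, read 627 with butein and 573 with sulfuretin, against 273 in DMSO. With resveratrol the 4 probe sets read 1301, 1278, 644 and 665, against 1381, 1329, 644 and 694 in DMSO1, so resveratrol was level with or slightly under its control.

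The log2 differences of Pgd with butein were 0.99, 0.94, 0.89 and 1.20, which are 1.98-fold, 1.92-fold, 1.85-fold and 2.30-fold. With sulfuretin they were 0.86, 0.84, 0.79 and 1.07, or 1.82-fold, 1.78-fold, 1.73-fold and 2.10-fold. With resveratrol they lay between -0.09 and 0. The dimmest probe set was therefore the only member probe set past 2-fold, with either butein or sulfuretin. Among all single-gene probe sets counted, 1.9% passed 2-fold upward with butein and 0.192% with sulfuretin, and 0.363% and 0.0492% passed it downward. The brightest Pgd probe set was higher than 98.0% of them with butein and than 99.7% with sulfuretin, as fewer genes moved far with sulfuretin.

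The call past 2-fold rests on a probe set on which the solvent arrays themselves differ. After the 5 arrays were quantile normalized together, 1423706_a_at was 0.97 higher on the log2 scale in DMSO1 than in DMSO, while the other 3 probe sets were lower in DMSO1 by values of -0.12, -0.18 and -0.23. Set against DMSO1 in place of DMSO on that common scale, 1423706_a_at was higher by only 0.20 with butein and 0.11 with sulfuretin. The other 3 were then higher by 1.03, 1.06 and 1.11 with butein, and by 0.94, 0.97 and 1.02 with sulfuretin. The differences on the 3 brighter probe sets, 0.79 to 0.99 against DMSO as deposited, were thus of like size with either solvent array, and the fourth decided the count. All 4 IDs end in _x_at or _a_at, endings that Affymetrix gave to probe sets that may read related sequences or several transcripts of a gene, so no Pgd value comes from a plain probe set.

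**Figure D1:**
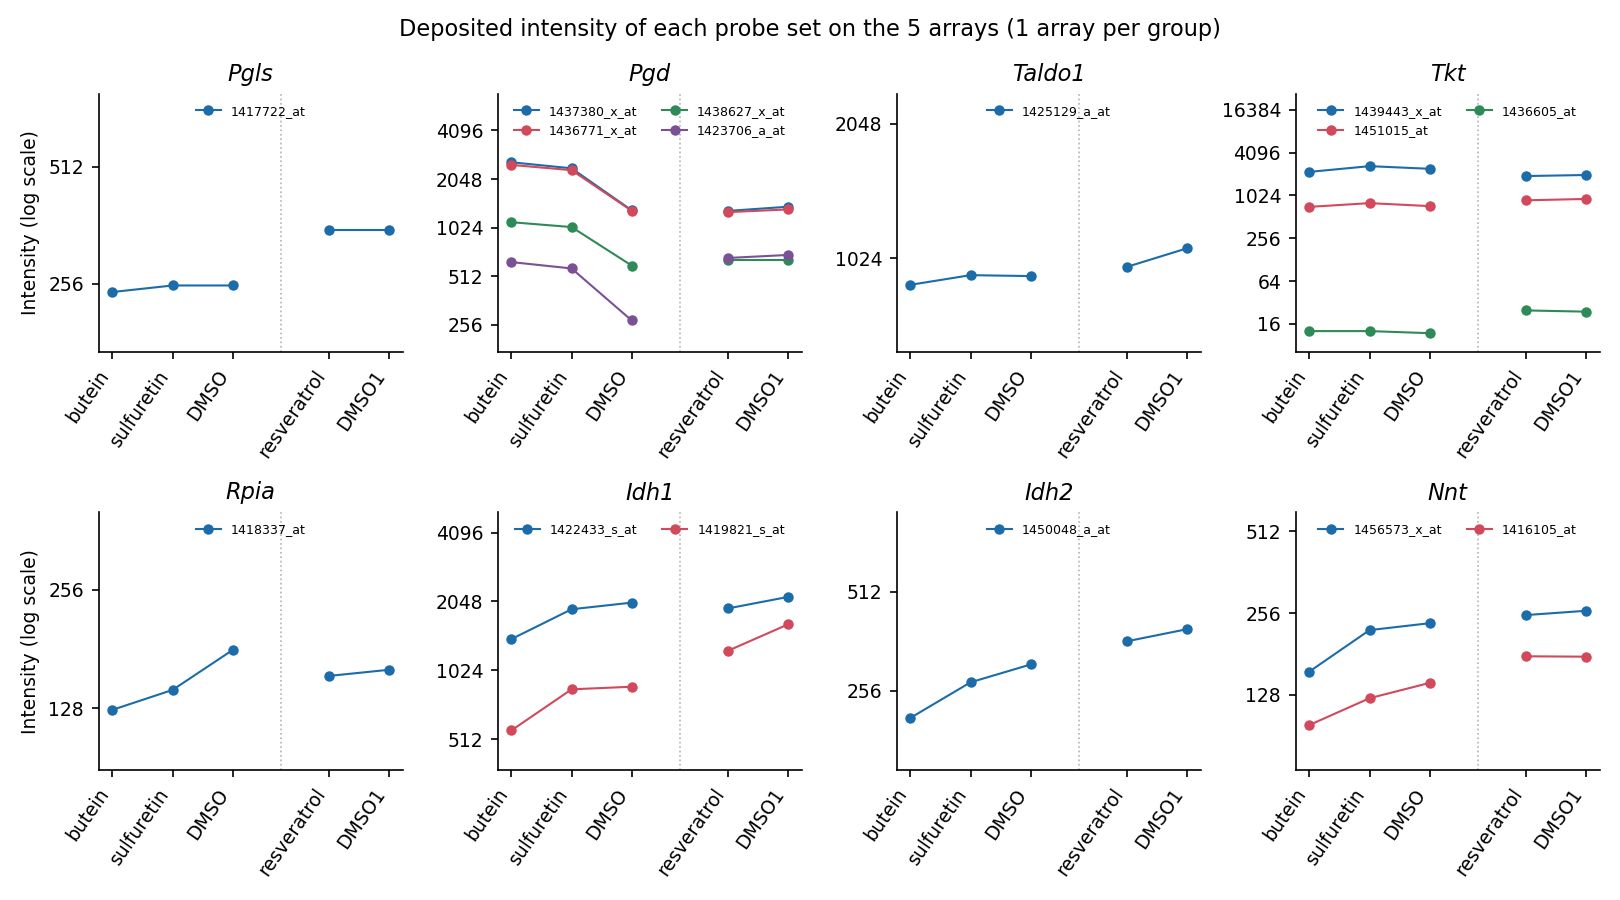
Deposited intensity (log scale) of the 15 counted member probe sets, by gene, on the butein, sulfuretin and DMSO arrays and, right of the dotted line, on the resveratrol and DMSO1 arrays, whose values follow another distribution. Each point is 1 array and each line 1 probe set. Pgd is higher with butein and sulfuretin than in DMSO on all 4 of its probe sets, while Rpia, Idh1, Idh2 and Nnt are lowest with butein.

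The neighbouring enzyme of the oxidative branch did not move with Pgd. Pgls (NCBI gene 66171), the lactonase just upstream, read 244 with butein and 253 with sulfuretin, against 253 in DMSO. It read 352 with resveratrol and 352 in DMSO1. Its log2 differences were -0.06 with butein and 0 with sulfuretin and resveratrol, and the values of the last 2 pairs were equal to within 1e-06 on the log2 scale. Such exact ties were common in the deposited table, at 33.4% to 36.1% of single-gene probe sets in each comparison, so a tie is a property of these values and no measure of precision.

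In the non-oxidative branch Tkt and Taldo1 differed little from DMSO and Rpia was lower. Tkt (NCBI gene 21881), transketolase, read 2189 with butein and 2635 with sulfuretin, against 2419 in DMSO, on its brightest probe set. On its second it read 706 with butein and 797 with sulfuretin, against 724 in DMSO. The log2 differences were -0.14 and -0.04 with butein and 0.12 and 0.14 with sulfuretin. With resveratrol the 2 probe sets read 1913 and 872, against 1980 and 913 in DMSO1, with differences of -0.05 and -0.06. On the common scale the brightest probe set of Tkt was -0.39 in DMSO1 relative to DMSO, and against DMSO1 it was 0.24 with butein and 0.50 with sulfuretin, so its butein difference changed sign with the choice of solvent array. Another probe set of Tkt was dim, at 12.7 with butein and with sulfuretin against 11.9 in DMSO, and at 24.8 with resveratrol against 23.8 in DMSO1.

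Taldo1 (NCBI gene 21351), transaldolase, read 893 with butein and 939 with sulfuretin, against 934 in DMSO. It read 980 with resveratrol, against 1078 in DMSO1. Its log2 differences were -0.06 with butein, 0.01 with sulfuretin and -0.14 with resveratrol, so the last was the widest of the 3.

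Rpia (NCBI gene 19895), which turns ribulose 5-phosphate into ribose 5-phosphate, read 127 with butein and 143 with sulfuretin, against 180 in DMSO. It read 155 with resveratrol, against 160 in DMSO1. The log2 differences were -0.50 with butein, -0.34 with sulfuretin and -0.05 with resveratrol. The solvent arrays differed by more than this: on the common scale Rpia was -0.63 in DMSO1 relative to DMSO, and against DMSO1 it was 0.12 with butein and 0.30 with sulfuretin. The sign of the Rpia difference therefore turned with the choice of solvent array.

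Outside the pentose phosphate pathway, the isocitrate dehydrogenases and Nnt were lower with butein, each by about 1.4-fold to 1.6-fold, and nearer to DMSO with sulfuretin. Idh1 (NCBI gene 15926) read 1403 with butein and 1893 with sulfuretin, against 2024 in DMSO, on its brighter probe set. On the dimmer one it read 559 with butein and 845 with sulfuretin, against 868 in DMSO. The log2 differences were -0.53 and -0.63 with butein, and -0.10 and -0.04 with sulfuretin.

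With resveratrol the Idh1 probe sets read 1909 and 1246, against 2144 and 1625 in DMSO1. The log2 differences were -0.17 and -0.38. The -0.38 was the lowest of the 15 member values in that comparison, where the central 95% of all single-gene probe sets ran from -0.30 to 0.26. On the common scale the dimmer Idh1 probe set was 0.66 higher in DMSO1 than in DMSO, while the brighter one was 0.005 higher. Against DMSO1 the brighter one was -0.45 with butein, nearly as against DMSO, and the dimmer one -1.26. Both Idh1 probe sets have IDs ending in _s_at, the ending for probe sets that may read more than 1 sequence. The brightest probe sets of Tkt and Nnt end in _x_at, and the counted ones of Idh2 and Taldo1 in _a_at. Only 5 of the 15 counted member probe sets are plain.

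Idh2 (NCBI gene 269951), the mitochondrial counterpart of Idh1, read 212 with butein and 272 with sulfuretin, against 308 in DMSO. It read 362 with resveratrol, against 394 in DMSO1. Its log2 differences were -0.54 with butein, -0.18 with sulfuretin and -0.12 with resveratrol. The solvent arrays were close for Idh2, at -0.05 for DMSO1 relative to DMSO on the common scale, and the butein difference against DMSO1 was -0.49.

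Nnt (NCBI gene 18115) read 156 with butein and 221 with sulfuretin, against 235 in DMSO, on its brighter probe set. On the other it read 99.1 with butein and 124 with sulfuretin, against 142 in DMSO. The log2 differences were -0.59 and -0.51 with butein, and -0.08 and -0.19 with sulfuretin. With resveratrol Nnt read 252 and 177, against 261 and 177 in DMSO1, with differences of -0.05 and 0.005. Against DMSO1 on the common scale the butein differences were -0.30 and -0.37, smaller but of the same sign.

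**Figure D2:**
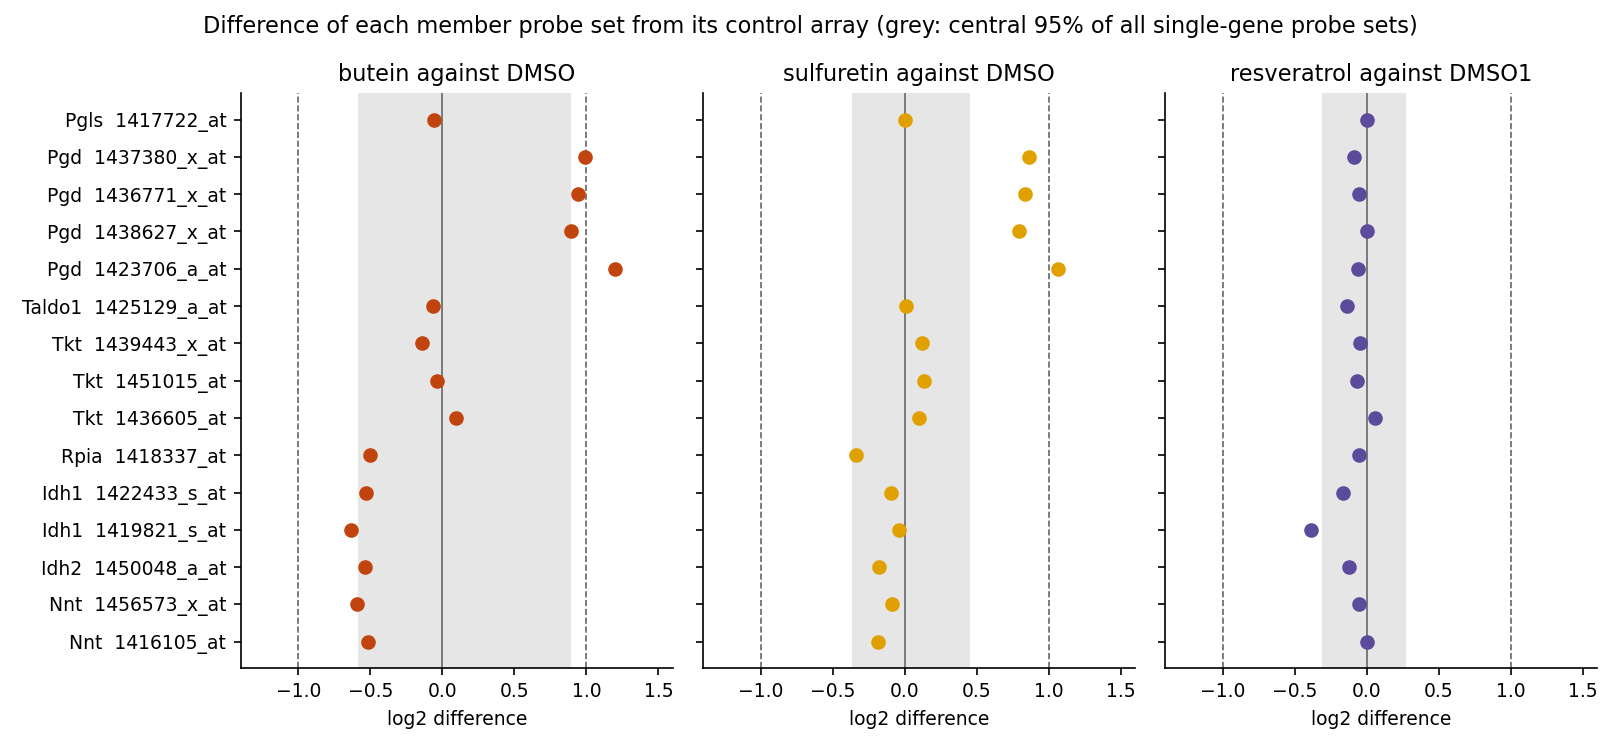
Log2 difference of each counted member probe set from its own control array, in 3 panels for butein, sulfuretin and resveratrol. Grey marks the central 95% of all 22340 single-gene probe sets in that comparison, which runs from -0.58 to 0.88 for butein, -0.36 to 0.45 for sulfuretin and -0.30 to 0.26 for resveratrol, and dashed lines mark 2-fold. The 4 Pgd points lie beyond the right edge of the grey band for butein and for sulfuretin, and no Pgd point leaves it for resveratrol.

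Over the 15 counted member probe sets, 10 were below and 5 above their DMSO value with butein, and the 5 were the 4 of Pgd and the dim one of Tkt. The median log2 difference was -0.06, against 0 over all single-gene probe sets, of which 34.9% were below and 31.8% above DMSO. Without Pgd, left out after its values were seen, the median of the other 11 was -0.50. At 1.5-fold, 4 member probe sets, all of Pgd, were higher with butein and 2, of Idh1 and Nnt, lower, where 4.96% and 2.49% of all single-gene probe sets were.

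With sulfuretin 8 member probe sets were above DMSO, 6 below and 1 equal, with a median of 0.01, and the 4 of Pgd were the ones past 1.5-fold (1.29% of all were higher by that much and 0.524% lower). Of all single-gene probe sets 32.2% were above DMSO with sulfuretin, 32.2% below and 35.6% equal. With resveratrol 11 were below DMSO1, 2 above and 2 equal, with a median of -0.06. Of all single-gene probe sets 33.5% were below DMSO1 with resveratrol, 31.2% above and 35.3% equal. None was past 2-fold with resveratrol, where 0.0627% of all single-gene probe sets were higher and 0.0537% lower by that much, and none was past 1.5-fold (0.331% higher and 0.327% lower).

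Sulfuretin and butein were also set against each other, at 6 h and at doses not given, so the comparison has no interval and the doses may not match. None of the 15 member probe sets differed by 2-fold (0.0895% of all were higher and 0.949% lower with sulfuretin). Pgd was 0.10 to 0.13 lower with sulfuretin on all 4 probe sets, with log2 differences of -0.12, -0.11, -0.10 and -0.13. Idh1 was higher with sulfuretin than with butein by 0.43 and 0.60, Nnt by 0.51 and 0.33, Idh2 by 0.36, Tkt by 0.27, 0.17 and 0 and Rpia by 0.17. The dimmer Idh1 probe set was the 1 member past 1.5-fold upward, where 0.913% of all were, and none passed it downward (2.89% of all). Over all 15 member probe sets, 10 were higher with sulfuretin, 4 lower and 1 equal, and the 4 lower were those of Pgd. Of all single-gene probe sets 33.8% were higher, 30.1% lower and 36.1% equal.

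Other genes that supply pentose phosphates or NADPH gave no 2-fold difference with any compound. The lists were drawn up by function, with each gene taken on its brightest probe set. Of 11 counted other pentose phosphate and ribose genes, 3 were above, 5 below and 3 equal to DMSO with butein (median 0), where 2.03% of all genes passed 2-fold upward and 0.297% downward. Of all genes 33.0% were above DMSO with butein, 37.1% below and 29.9% equal. H6pd, the enzyme that runs the oxidative steps inside the endoplasmic reticulum, read 61.5 with butein and 61.5 with sulfuretin, against 58.3 in DMSO. The epimerase gene Rpe and the phosphoribosyl pyrophosphate synthetase genes Prps1 and Prps2, named after their values were seen, had log2 differences of -0.57, -0.52 and -0.59 with butein.

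Of 15 counted genes of other NADPH supply, 4 were above, 9 below and 2 equal to DMSO with butein, with a median of -0.11. Over all genes these shares were 33.0% above, 37.1% below and 29.9% equal. Me1, cytosolic malic enzyme and a main NADPH source of fat synthesis, read 471 with butein and 501 with sulfuretin, against 470 in DMSO, log2 differences of 0.004 and 0.09. It read 1081 with resveratrol, against 1066 in DMSO1. The folate enzyme gene Mthfd1l (log2 difference 0.82 with butein and 0.55 with sulfuretin) and the cytosolic aconitase gene Aco1 (-0.65 and -0.22), named after their values were seen, lay at the ends of the list. The 3 genes of the NAD-linked isocitrate dehydrogenase, Idh3a, Idh3b and Idh3g, had differences of -0.28, -0.17 and -0.27 with butein.

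Genes of processes that use NADPH were taken in 2 lists, antioxidant defence and fat and sterol synthesis. A place in either list does not mean that the gene's product takes up NADPH itself. The second list also holds partners that use none themselves, such as Acly, Acaca, Acacb, Srebf1 and Thrsp. In antioxidant defence 4 of 13 counted genes passed 2-fold upward and none downward, both with butein and with sulfuretin. Of all genes, 2.03% did so upward with butein and 0.193% with sulfuretin, and 0.0482% downward with sulfuretin. They were Hmox1, heme oxygenase 1 (20.9-fold with butein and 13.8-fold with sulfuretin), Txnrd1, cytosolic thioredoxin reductase (9.88-fold and 2.68-fold), Nqo1, a quinone reductase (3.84-fold and 2.51-fold), and Cbr3, a carbonyl reductase (2.65-fold and 2.53-fold). Gsr, glutathione reductase, read 200.3 with butein and 178 with sulfuretin, against 103 in DMSO, log2 differences of 0.97 and 0.80. The list's median was only 0.05 with butein and 0.24 with sulfuretin, since most of its other members differed little. With resveratrol 5 of 13 were above and 8 below DMSO1, with a median of -0.06, and Hmox1 was highest at 0.97. Of all genes 32.9% were above DMSO1 with resveratrol, 34.0% below and 33.1% equal. None of the listed genes passed 2-fold with resveratrol, where 0.0804% of all genes did upward and 0.0643% downward.

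In fat and sterol synthesis all 15 counted genes, partners included, were below DMSO with butein, with a median of -0.30. Of all genes 37.1% were below it, 33.0% above and 29.9% equal. Thrsp, a lipogenic gene and one of the partners, was the 1 past 2-fold (-1.65), where 0.297% of all genes were lower by that much. Fasn, fatty acid synthase, which takes up NADPH at each round of chain growth, read 1038 with butein and 1095 with sulfuretin, against 1575 in DMSO, log2 differences of -0.60 and -0.52. Acly, the enzyme that supplies cytosolic acetyl-CoA, read 1074 with butein and 1192 with sulfuretin, against 1463 in DMSO, differences of -0.45 and -0.30. With sulfuretin 11 of the 15 were below DMSO, 2 above and 2 equal, with a median of -0.19 (32.6% of all genes were below, 34.8% above and 32.5% equal), and Thrsp (-1.11) was past 2-fold (0.0482% of all genes). With resveratrol 14 were below DMSO1 and 1 equal, with a median of -0.26 (34.0% of all genes were below, 32.9% above and 33.1% equal), and Fasn read 1369 against 1743 in DMSO1.

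Glucose entry had 2 of 9 counted genes past 2-fold, the glucose transporter gene Slc2a1 (6.73-fold with butein and 3.14-fold with sulfuretin) and the hexokinase gene Hk2 (2.79-fold and 2.05-fold), where 2.03% of all genes were higher by that much with butein and 0.193% with sulfuretin. Among 7 genes of the NRF2 pathway, the regulator of antioxidant genes, 5 were past 2-fold upward with butein (2.03% of all genes) and 4 with sulfuretin (0.193%). They were Osgin1 (log2 difference 4.52 with butein and 1.98 with sulfuretin), Srxn1 (3.83 and 2.76), Gclc (3.71 and 2.05), Gclm (2.33 and 1.86) and, with butein alone past 2-fold, Slc7a11 (1.42 and 0.33). Slc7a11 was dim, at 16.7 with butein, 7.83 with sulfuretin and 6.25 in DMSO, and at 5.96 with resveratrol and in DMSO1. It reached the floor with butein only, so its differences are taken from a DMSO value under the floor. Pgd, at 0.99 with butein and 0.86 with sulfuretin, lay under Osgin1, Srxn1, Gclc and Gclm with both compounds. Pgd lay under Slc7a11 with butein but above it with sulfuretin, an order that rests on these dim values.

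**Figure D3:**
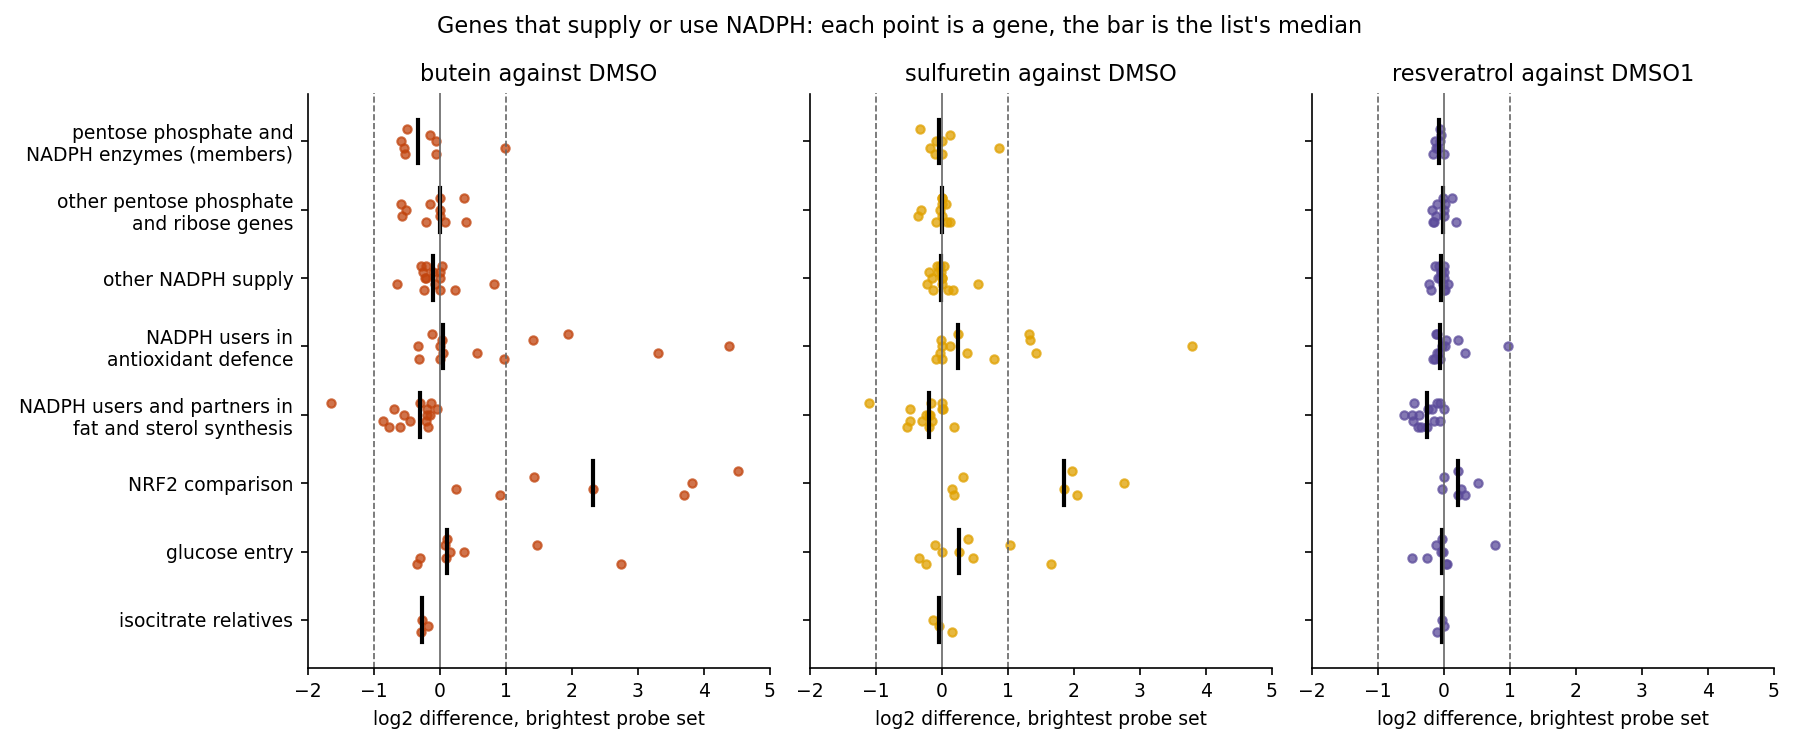
Log2 difference of each counted gene, on its brightest probe set, in 8 lists and 3 comparisons, with a bar at each list's median and dashed lines at 2-fold. Among the 8 members Pgd is the 1 gene near the upper line with butein (0.99) and sulfuretin (0.86), while the genes of fat and sterol synthesis lie below 0 with butein.

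With clone and predicted gene names left out, the gene most like Pgd was Gsr. Likeness was the Euclidean distance between the 3 log2 differences (butein, sulfuretin and resveratrol, each from its control) on brightest probe sets. It was computed over 12439 counted genes, and those with clone or predicted names were then left out of the ranking. Pgd was taken as the member whose 3 differences were largest together. Gsr, with 0.97, 0.80 and -0.17 against 0.99, 0.86 and -0.09 for Pgd, lay at a distance of 0.11. Next came Pip4p2 at 0.12 and Gpr137b-ps at 0.20, then Sash1 and Zbtb43, both at 0.22. The butein and sulfuretin differences share the DMSO array, so likeness between genes in both can come from that array.

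The solvent arrays give the only measure of how far untreated samples stand apart. On the common scale the 15 member probe sets differed between DMSO1 and DMSO by a median of 0.15 in absolute log2 difference and by at most 0.97, against a median of 0.36 over all 22340 single-gene probe sets, of which 11.0% differed by 2-fold or more. Any separate normalization of the sets, which is inferred from the values and not stated in the labels, is part of this spread. On that scale the butein difference from DMSO was larger in size than the probe set's own solvent difference for 8 of 15, the 4 of Pgd, both of Nnt, the brighter of Idh1 and that of Idh2. It was not for the other 7, those of Pgls, Taldo1, Tkt and Rpia and the dimmer one of Idh1. With sulfuretin 8 of 15 were larger, the 4 of Pgd among them. The rest were 1451015_at of Tkt, the brighter of Idh1, that of Idh2 and 1416105_at of Nnt. Of these the brighter Idh1 probe set was only -0.05, against a solvent difference of 0.005. With resveratrol 3 of 15 were larger, those of Taldo1 and Idh2 and the brighter of Idh1. The share of all single-gene probe sets with a larger difference was not computed, so these counts cannot be set against it. For 1423706_a_at of Pgd the margin was narrow, 1.17 with butein and 1.08 with sulfuretin against 0.97. In each comparison the treated difference and the solvent difference share a solvent array, so an unusual value on that array enters both. The count is therefore only descriptive. It holds 1423706_a_at, which was only 0.20 above DMSO1 with butein. It leaves out the dimmer Idh1 probe set, which with butein was -0.61 from DMSO and -1.26 from DMSO1.

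**Figure D4:**
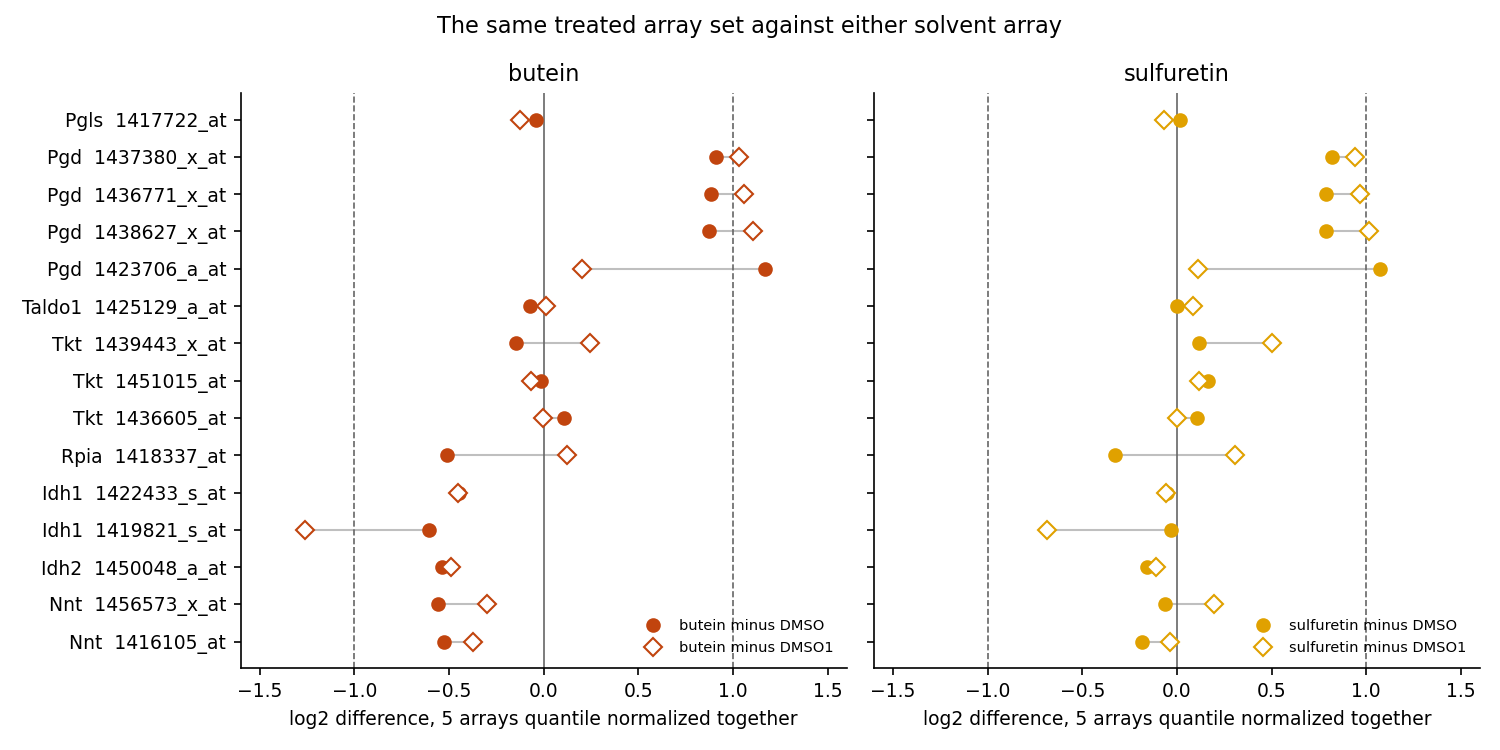
Log2 difference of each counted member probe set for butein and for sulfuretin, after quantile normalization of the 5 arrays together, against DMSO (filled circles) and against DMSO1 (open diamonds). Dashed lines mark 2-fold. The 3 brighter Pgd probe sets lie between 0.79 and 1.11 with either control, while 1423706_a_at moves to 0.20 and 0.11. Rpia changes sign with both compounds. Other probe sets change sign too, among them the brightest of Tkt and that of Taldo1 with butein, and the brighter of Nnt with sulfuretin.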

How the data were processed

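Affymetrix arrays of total RNA from 5 samples, 1 per group, were analysed. The authors made the deposited intensity values with RMA, per the submitters' processing notes; its version and output scale, and the build, are not stated there. The deposited intensity range, 1.4 to 9340, is that of a linear scale, so log2 was taken with no pseudocount. Depth does not apply to arrays, and their number limits the precision.

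Of 45037 probe sets, 34945 named 1 gene, 932 several and 9160 were unnamed in the platform annotation. Gene IDs were looked up in a RefSeq table of GRCm38.p6, which held those of 34741 and gave current symbols. The 18193 genes were represented by their brightest probe set, and 12439 reached the floor. Members and lists were chosen with earlier results of these data known. All member probe sets were named, and from the lists genes past 2-fold (up to 6 per list) and Me1, Fasn, Acly, Gsr, Txnrd1, Nqo1, Gclc and H6pd. The 5 genes most like Pgd, with clone and predicted names left out, were also named.

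No test was made within comparisons. In an alternative, limma treated the solvent arrays as a replicate pair, which leaves 1 residual degree of freedom. Other alternatives changed the fold, the floor, the normalization, the control and the choice of probe sets. The calling code and limma were tested on simulated data. Python 3.11.15, numpy 2.4.6, pandas 2.3.3, R 4.3.3 and limma 3.58.1 were used.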

Additional observations from a re-analysis of the deposited data

How the results depend on the processing

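The count of member probe sets past 2-fold was 1 with butein and 1 with sulfuretin, both times 1423706_a_at of Pgd. It became 6 with butein, 4 with sulfuretin and 1 for sulfuretin against butein at 1.5-fold. With the mean of DMSO and DMSO1 as control it was 0 with butein and with sulfuretin. It was also 0 for both with the brightest probe set per gene, with only plain probe sets, and without Pgd (added after seeing the data). Those last 3 alternatives leave out 1423706_a_at, the only member probe set past 2-fold, so they had to give 0. With the mean of a gene's probe sets the count was 0 for sulfuretin. With the other DMSO array as control it was 4 for butein, the 3 brighter of Pgd higher and the dimmer 1 of Idh1 lower. The share of all single-gene probe sets past 2-fold with that control was not computed. Between the solvent arrays themselves 11.0% of all single-gene probe sets differed by 2-fold or more. Limma had 1 treated array per compound, so only its effect sizes are given, each from the mean of both solvent arrays. The 3 brighter Pgd probe sets differed by 0.97, 0.97 and 0.99 with butein, and by 0.88, 0.88 and 0.90 with sulfuretin. For 1423706_a_at the differences were 0.69 and 0.59. These are probe sets of 1 gene and not separate findings. The butein median of -0.06 became -0.0013 with the other DMSO array, -0.32 and -0.28 with 1 value per gene (brightest and mean), and -0.50 without Pgd. The sulfuretin median became 0.11 with the other DMSO array. The resveratrol median became -0.17 with the other DMSO array and -0.12 with the mean of both. The median of sulfuretin against butein was 0.17, and 0.096 with no floor and 0.27 without Pgd. Leaving out or merging probe sets changes which values are counted, and for the control arrays the cause was not tested. On brightest probe sets, the other DMSO array turned the sign for 3 of 8 genes with butein (Taldo1, Tkt and Rpia), 2 of 8 with sulfuretin (Rpia and Nnt) and 0 of 8 with resveratrol, and the mean of both arrays turned Tkt with butein and Nnt with sulfuretin. No paired analysis was possible because each group has 1 array.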

Other observations

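Txnip, a glucose-responsive inhibitor of thioredoxin, differed with resveratrol more than any member did: it read 983 with resveratrol, against 577 in DMSO1, a log2 difference of 0.77, and 333 with butein and 294 with sulfuretin, against 314 in DMSO. Elovl6, a fatty acid elongase, was the lowest gene of the fat and sterol list with resveratrol, at 55.8 against 84.8 in DMSO1, a log2 difference of -0.60. Its difference was -0.19 with butein and with sulfuretin. Both genes were named after their values were seen.

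Fdft1 and Sqle, enzymes of sterol synthesis that use NADPH, were the lowest of that list with butein after Thrsp. Fdft1 read 355 with butein and 460 with sulfuretin, against 642 in DMSO, and Sqle 197 with butein and 293 with sulfuretin, against 336 in DMSO. Their log2 differences with butein were -0.86 and -0.77. With resveratrol they were -0.46 and -0.39, so these genes were lower with all 3 compounds, each on 1 array. They too were named after their values were seen.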
